A study of Mus musculus with 11 samples.

Results

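The endothelial cells that line brain capillaries were followed through 9 genes: the junction genes Cldn5 and Cdh5, the receptor genes Tek, Tie1, Kdr and Eng, the clotting gene Vwf and the barrier transporter genes Abcb1a and Slc2a1. Every probe set whose annotated symbol was one of these genes was taken, which gave 11 of the 12488 probe sets on the array. Of these, 9 probe sets, 1 for each gene, were bright enough to be tested, and the second probe sets of Tie1 and Vwf were not. The arrays were 11 Affymetrix arrays of whole-brain RNA, 1 mouse each, untreated and on the C57BL/6J strain.

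The 5 null mice lacked a nicotinic acetylcholine receptor subunit, β4, which forms part of an ion channel opened by acetylcholine, and the 6 wild-type mice were littermate controls of the mutant stock. Null replicates 1 and 2 were males of 9 weeks, null replicate 3 was a female of 7 weeks, and null replicates 4 and 5 were females of 8 weeks. Wild-type replicate 1 was a male of 9 weeks, replicate 2 a male of 8 weeks and replicate 3 a female of 7 weeks, and these carried animal numbers with the letters B4, as did all 5 null mice. Wild-type replicates 4 and 6 (males) and 5 (a female) were 6 weeks old and carried numbers with the letters LT, whose meaning the labels do not give. The animals' sex was therefore spread unequally over the genotypes, and the LT mice were all wild-type and all younger than the B4 mice, so that letters and age cannot be told apart. The labels do not describe how the null allele was made. No probe set named Chrnb4, the gene of the β4 subunit, was in the annotation used here, so the genotype itself was not checked.

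Brain endothelial cells form the blood-brain barrier. Neighbouring cells are sealed by tight junctions, of which claudin 5 is a main strand protein, and held together by adherens junctions built on VE-cadherin. Angiopoietins, vascular endothelial growth factors and ligands of the TGF-beta and BMP family act on them through surface receptors, and nutrients cross through carriers such as the glucose transporter GLUT1 while the pump P-glycoprotein returns many drugs to the blood. These cells are a minor part of a whole brain, and in bulk RNA fewer endothelial cells and less RNA per endothelial cell cannot be told apart.

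The values are linear MAS5 signals, which compare 1 probe set between arrays but not different probe sets with each other. All arrays had been scaled to the same trimmed mean of 150.1. The 2 male null arrays stood apart: their median signal was 58.3 and 56.3, against 43.6 to 49.75 on the other 9 arrays. The ratio of 3' to 5' Gapdh control signal, a measure of how complete the labelled RNA was, stood at 0.859 and 0.798 on the male null arrays, at 2.75, 2.19 and 3.58 on the female null arrays and at 3.57 to 5.92 on the wild-type arrays. A higher ratio means relatively less 5' signal, so by this measure the labelled RNA was most complete on the male null arrays. The actin control ratio was also lowest there, at 1.53 and 1.33 against 2.89 to 5.45 on the other arrays. That of the transferrin receptor control was not, at 3.10 and 2.87 against 1.59 to 32.2. The mean log2 Gapdh ratio was lower in null than in wild-type arrays by a difference of -1.28 (two-sided exact permutation p = 0.00433), and by -0.58 without the male null arrays (p = 0.0238, same exact test). The genotype differences of the 9 genes and of the list genes named are therefore also given without the male null arrays.

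No endothelial gene passed an adjusted p of 0.05 for genotype over all 11 arrays (0 of 9, limma with sex in the fit and Benjamini-Hochberg adjustment over 7461 probe sets), where 0.0268% of all tested probe sets did. At an unadjusted limma p under 0.05, Slc2a1 was higher and Eng was lower in null brains, 1 gene each of 9, beside 13.4% and 9.69% of all tested probe sets. The median log2 difference of the 9 genes was -0.24, and 6 of the 9 were negative, beside a median of 0.03 and 46.1% negative over all tested probe sets. No member probe set separated all null from all wild-type arrays, while 0.590% of tested probe sets lay wholly above and 0.496% wholly below. For the male contrast of a fit over all 11 arrays 3 genes passed: Slc2a1 rose, and Eng and Tie1 fell. That count of 3 of 9 stood beside 32.6% of all tested probe sets in the same comparison. In a fit of the male arrays alone, Tie1 did not pass (adjusted p = 0.0561), while Eng (adjusted p = 0.0276) and Slc2a1 (adjusted p = 0.0098) did. The last section gives the count of all probe sets that passed in males alone.

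**Figure D1:**
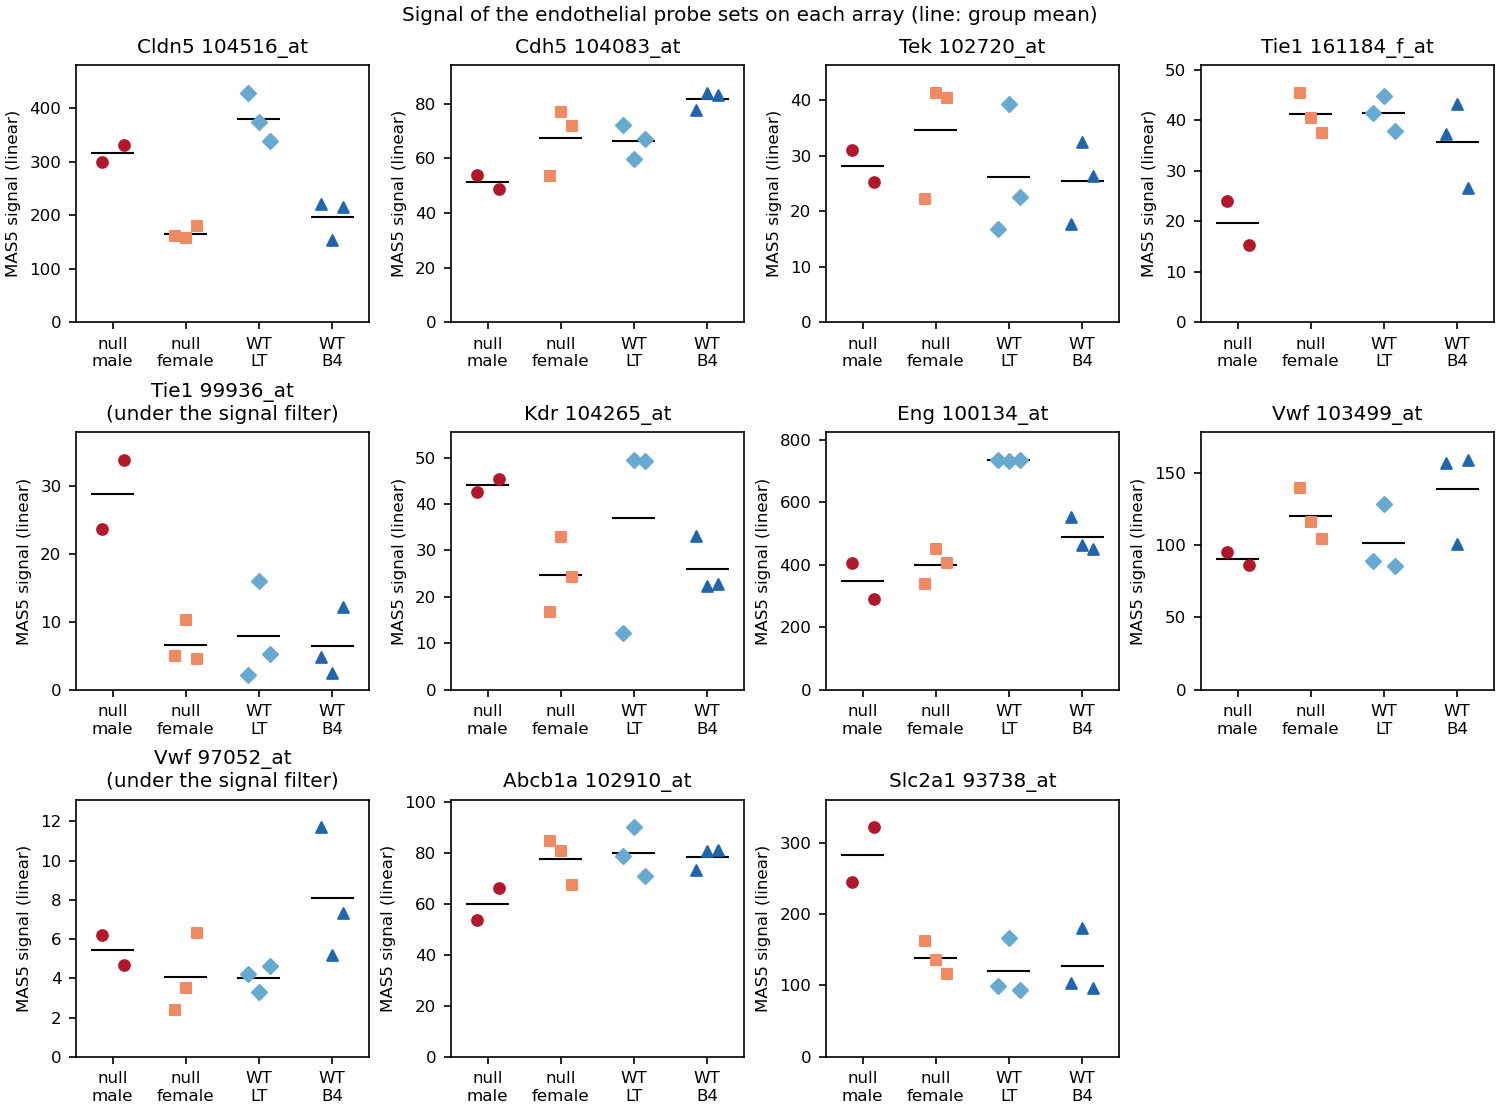
Linear MAS5 signal (vertical axes) of the 11 endothelial probe sets, 1 point per array, in 2 male null, 3 female null, 3 wild-type LT and 3 wild-type B4 brains (horizontal lines are group means). Slc2a1 was highest on the 2 male null arrays (244.4 and 322.0), while Eng lay between 732.6 and 734.8 on the 3 LT arrays and at or below 550.9 elsewhere.

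Claudin 5 is encoded by Cldn5 (probe set 104516_at). Its signal was 299.9 and 330.7 in male null brains, 160.8, 156.9 and 179.3 in female null brains, 428.1, 373.9 and 338.3 in LT wild-type brains and 221.2, 153.6 and 215.3 in B4 wild-type brains. The 5 highest arrays were thus the 2 male null and the 3 LT wild-type arrays, with no overlap with the other 6, a pattern seen after the values were known and shared by 2.22% of tested probe sets. The means were 226 ± 83.1 in null and 288 ± 107 in wild-type brains (SD, n = 5 and 6). The genotype difference was -0.24 on the log2 scale (95% interval -0.84 to 0.36, adjusted p = 0.620). It took the opposite sign among B4 animals alone (0.28, adjusted p = 0.478), and was -0.78 without the male null arrays (adjusted p = 0.999).

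VE-cadherin, the adhesion protein of endothelial adherens junctions, is the product of Cdh5 (104083_at). Signals of 53.9, 48.8, 53.4, 76.9 and 71.9 were measured in null brains 1 to 5, against 77.6, 84.0, 83.1, 72.1, 59.8 and 67 in wild-type brains 1 to 6. All 5 null arrays lay below the 3 B4 wild-type arrays, as did 3.04% of tested probe sets, but not below the LT arrays. The difference between null and wild-type was -0.33 over all arrays (interval -0.72 to 0.06, adjusted p = 0.289), -0.51 among B4 animals (adjusted p = 0.171) and -0.08 without the male null arrays. None of these passed. Among B4 animals 0 of the 9 genes did, beside 0.348% of tested probe sets, and without the male null arrays 0 of 9 did, beside 0%.

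Among the receptors, Tek encodes TIE2, the receptor of the angiopoietins. Its probe set (102720_at) was dim, at 31.0, 25.2, 22.2, 41.3 and 40.3 in null brains and 17.7, 32.5, 26.3, 16.8, 39.2 and 22.6 in wild-type brains. Neither genotype stood apart, and the log2 difference of 0.22 had an interval of -0.42 to 0.86 (adjusted p = 0.674). It was 0.05 without the male null arrays.

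Tie1 encodes the related receptor that pairs with TIE2. Its tested probe set (161184_f_at) had 24 and 15.3 in male null brains, 45.4, 40.5 and 37.5 in female null brains and 37.2, 43.1, 26.5, 41.4, 44.7 and 37.9 in wild-type brains. The male null arrays were the 2 lowest of the 11, a separation found in 16.5% of tested probe sets. Over all arrays the log2 difference was -0.44 (SE 0.29, interval -1.07 to 0.19, adjusted p = 0.378), and without the male null arrays it was 0.25. The male difference was -1.06 (SE 0.32), which passed in the fit over all 11 arrays (adjusted p = 0.0248) and not in a fit of the male arrays alone (adjusted p = 0.0561). The female difference was 0.25 (adjusted p = 0.995). The interaction of genotype and sex was 1.31, females minus males (SE 0.47, adjusted p = 0.0771). The second Tie1 probe set (99936_at, under the signal filter) ran the other way in males, with 23.7 and 33.8 in male null brains against 4.8, 2.4, 2.2 and 5.3 in male wild-type brains. The 2 probe sets of this gene therefore disagreed on the male null arrays.

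VEGF receptor 2, the main signalling receptor for VEGF in endothelium, is encoded by Kdr (104265_at). It read 42.7, 45.4, 16.8, 32.8 and 24.3 in null brains and 33.1, 22.4, 22.8, 12.3, 49.5 and 49.2 in wild-type brains. This was the most variable of the 9 genes within genotype and sex, with a residual SD of 0.68 log2 units that ranked at percentile 94.3 of all tested probe sets. The genotype difference of 0.17 had an interval of -0.72 to 1.05 (adjusted p = 0.833), and it was -0.50 without the male null arrays.

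Endoglin, the product of Eng (100134_at), is a co-receptor for TGF-beta and BMP ligands in vessels. Null brains 1 to 5 had signals of 406.5, 291.0, 339.0, 450.8 and 405.4. The 3 wild-type LT brains read 734.2, 732.6 and 734.8, and the wild-type B4 brains 550.9, 461.5 and 449.1. Only null replicate 4 exceeded any wild-type array, by lying just above wild-type replicate 3. The means were 379 ± 63.1 in null and 611 ± 139.6 in wild-type brains (SD, n = 5 and 6). This gave a log2 difference of -0.69 (SE 0.18, interval -1.08 to -0.30), or 1.61-fold lower in null brains, with an adjusted p = 0.0930 by limma. Of 11 fits that each left out 1 array, only that without wild-type replicate 3 passed the threshold (-0.85, adjusted p = 0.0445 by limma). Over these fits the Eng difference ran from -0.85 to -0.55, the latter without null replicate 2. More of all tested probe sets passed without wild-type replicate 3 than over all arrays, as counted in the last section.

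The Eng difference kept its sign in each fit run, but its size depended on the arrays compared. It was -0.39 among B4 animals (adjusted p = 0.186) and -0.54 without the male null arrays (adjusted p = 0.999). With both the male null arrays left out and the letters as a block, an alternative chosen after seeing the data, it was -0.24 (adjusted p = 0.988). Within males Eng fell by 0.82 on the log2 scale (SE 0.24, adjusted p = 0.0194). The female difference was -0.54 (adjusted p = 0.995), and the interaction of 0.29 did not pass (adjusted p = 0.624).

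Von Willebrand factor, which carries platelets and factor VIII to injured vessel wall, is encoded by Vwf. Its tested probe set (103499_at) had 94.8, 86.4, 139.4, 115.9 and 103.8 in null brains and 156.7, 100.5, 158.7, 89.0, 128.6 and 85.5 in wild-type brains. The groups overlapped throughout, and the log2 difference was -0.24 (interval -0.62 to 0.15, adjusted p = 0.437), or -0.27 without the male null arrays. The other Vwf probe set (97052_at) did not exceed 6.3 in null brains and 11.7 in wild-type brains and was under the filter.

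P-glycoprotein, the drug pump of the barrier, is encoded in mouse brain endothelium by Abcb1a (102910_at). Signals in null brains were 53.8, 66.4, 85.0, 80.9 and 67.7, and in wild-type brains 73.6, 81.1, 81.4, 79.1, 90.3 and 71.2. The male null arrays were the 2 lowest, as in 16.5% of tested probe sets. It was the steadiest of the 9 genes, with a residual SD of 0.14 at percentile 11 of tested probe sets, and the log2 difference was -0.25 (interval -0.58 to 0.07, adjusted p = 0.319), or -0.15 without the male null arrays.

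GLUT1, the glucose carrier of the barrier, is the product of Slc2a1 (93738_at). The male null brains had 244.4 and 322.0 and the female null brains 162.2, 135.9 and 116.0. The wild-type brains had 103.8, 180.8, 96.4, 98.8, 166.7 and 93.3. Both male null arrays lay above all 9 others, as did 20.7% of tested probe sets, and the female null arrays lay inside the wild-type range. Means were 196 ± 85.7 in null and 123 ± 39.5 in wild-type brains (SD, n = 5 and 6), and the log2 difference was 0.73 (SE 0.26, interval 0.16 to 1.30, adjusted p = 0.140 by limma). Of 11 fits that each left out 1 array, only that without wild-type replicate 5 passed the threshold (1.01, adjusted p = 0.0279 by limma). Over these fits the Slc2a1 difference ran from 0.50 to 1.01, the former without null replicate 2. Without wild-type replicate 5, 876 probe sets passed, against 2 over all arrays. Within males Slc2a1 rose by 1.29 (SE 0.29, adjusted p = 0.00452), or 2.45-fold. The female difference was 0.11 (adjusted p = 0.995), and the interaction of -1.18 had an adjusted p by limma of 0.0728. Without the male null arrays the difference was 0.11 (adjusted p = 0.999).

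**Figure D2:**
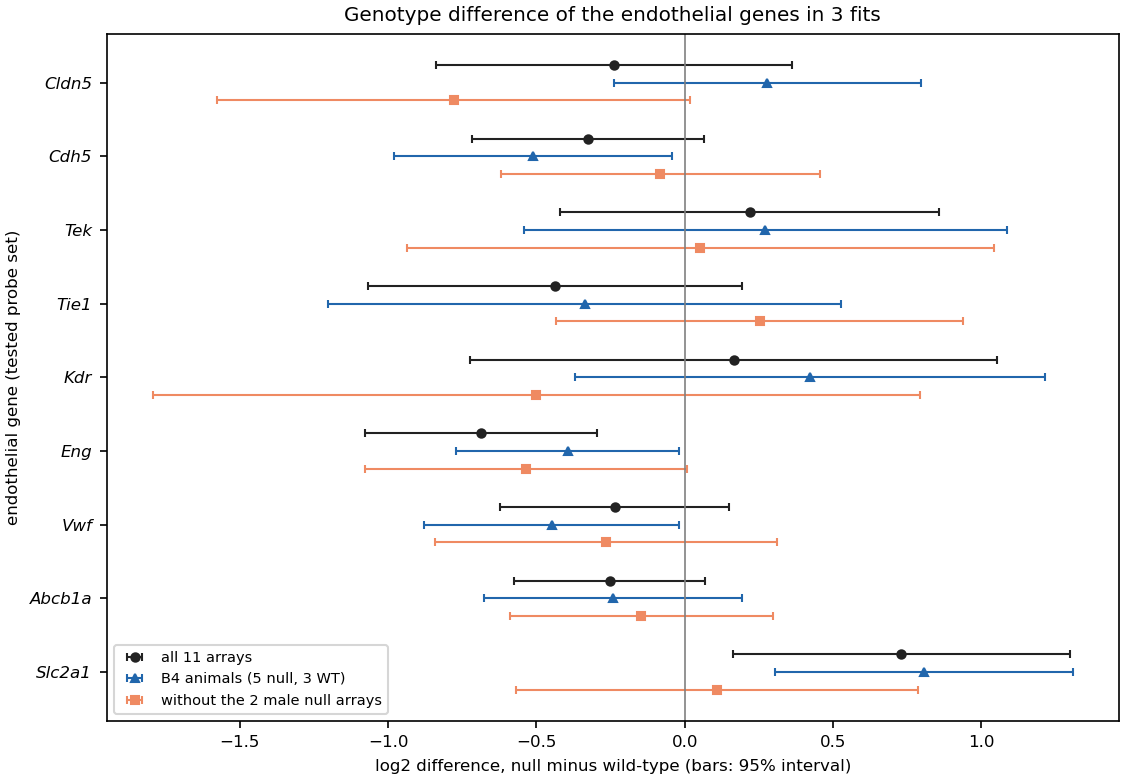
Log2 difference, null minus wild-type, of the 9 tested endothelial probe sets (horizontal axis) with 95% intervals, over all 11 arrays, over the 8 B4 animals and without the 2 male null arrays. Over all arrays the intervals of Eng (-1.08 to -0.30) and Slc2a1 (0.16 to 1.30) excluded 0. Without the male null arrays both held 0, at -0.54 for Eng (-1.08 to 0.0080) and 0.11 for Slc2a1 (-0.57 to 0.79).

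Across the sexes, no member and no other probe set passed the adjusted threshold for genotype in females (0 of 9, 0% of all tested by limma, with Cldn5 alone of the members at an unadjusted p under 0.05, beside 1.58% of probe sets lower at that threshold). All 3 female null arrays had less Cldn5 signal (160.8, 156.9 and 179.3) than the 2 female wild-type arrays (215.3 and 373.9), a separation found below wild-type in 8.75% of tested probe sets. The genotype by sex interaction was passed by 0 of 9 endothelial genes, against 15.9% of all tested probe sets. Its male side rests on the 2 male null arrays, which stood apart in Gapdh ratio and median signal. A difference by sex therefore cannot be told apart from these properties of the arrays. For the interaction, the values of the members were as follows. Slc2a1 and Tie1 had the lowest adjusted p of the members, as given above, and Cldn5 followed with an interaction of -1.03 (adjusted p = 0.168). With the letters of the animal number as a block, the Cldn5 interaction of -1.03 passed (adjusted p = 0.0113). The share of all tested probe sets that passed with that block is not given, so this call cannot be set beside it. For sex itself, female minus male with genotype in the fit, 0 of 9 genes passed and 0% of all probe sets did. Vwf was the only member at an unadjusted limma p under 0.05 (log2 difference 0.42, adjusted p = 0.363), beside 4.88% of probe sets higher in females at that threshold. Its means were 120 ± 18.1 in null females and 144 ± 21.3 in wild-type females, and 90.6 ± 5.94 in null males and 108 ± 33.1 in wild-type males (SD, n = 3, 2, 2 and 4).

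Cldn5 and Eng also differed with the letters of the animal number, a comparison added after seeing the data. Among wild-type brains both genes were higher on all 3 LT than on all 3 B4 arrays, a separation found in 9.23% of tested probe sets. Cldn5 averaged 380.1 ± 45.2 in LT and 197 ± 37.4 in B4 wild-type brains, and Eng 734 ± 1.14 in LT and 487 ± 55.5 in B4 wild-type brains (SD, n = 3 each). Cdh5 and the dim Vwf probe set lay wholly lower on the LT arrays, as did 9.15% of tested probe sets.

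With genotype and sex in the fit, the LT minus B4 difference was 0.96 for Cldn5 (SE 0.26, adjusted p = 0.124 by limma) and 0.60 for Eng (SE 0.17, adjusted p = 0.165 by limma). No member passed (0 of 9), beside 0.469% of all tested probe sets. Without the 2 male null arrays the same differences passed, with adjusted p values by limma of 0.0188 for Cldn5 and 0.0441 for Eng. More of all tested probe sets also passed in that fit than over all arrays, as counted in the last section. Because the LT mice were also the only mice of 6 weeks, these values compare young LT with older B4 wild-type mice.

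The upstream sequences of Eng and Cldn5, which shared the LT difference, and of Slc2a1, which had the largest genotype difference of the 9 genes, are given as the 250 bases before the gene's start on the coding strand, from RefSeq on GRCm38.p6. Eng lies at chr2:32646345-32646594, Cldn5 at chr16:18776597-18776846 and Slc2a1 at chr4:119108495-119108744, all on the plus strand. Capitals mark the letters GGAA or its reverse complement TTCC, the core bound by ETS factors, and ACGTG or CACGT, the core bound by hypoxia-inducible factors.
Eng: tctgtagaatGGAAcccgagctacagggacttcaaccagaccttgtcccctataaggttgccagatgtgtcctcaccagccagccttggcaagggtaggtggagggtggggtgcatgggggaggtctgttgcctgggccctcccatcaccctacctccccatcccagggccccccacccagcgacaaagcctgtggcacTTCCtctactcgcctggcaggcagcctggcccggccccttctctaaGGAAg
Cldn5: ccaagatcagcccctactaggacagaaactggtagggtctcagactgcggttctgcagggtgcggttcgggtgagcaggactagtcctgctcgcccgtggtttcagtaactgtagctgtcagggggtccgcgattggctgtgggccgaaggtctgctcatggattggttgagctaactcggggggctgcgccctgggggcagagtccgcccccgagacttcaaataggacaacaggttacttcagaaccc
Slc2a1: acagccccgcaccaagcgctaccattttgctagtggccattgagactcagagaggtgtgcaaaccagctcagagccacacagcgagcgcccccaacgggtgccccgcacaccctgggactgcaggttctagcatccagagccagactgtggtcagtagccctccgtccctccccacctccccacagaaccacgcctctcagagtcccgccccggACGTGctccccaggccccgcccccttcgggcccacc
The Eng stretch held 3 GGAA or TTCC cores, and the Cldn5 and Slc2a1 stretches held 0. The single ACGTG of the 7 members found in the sequence table was in Slc2a1. Across 32851 promoters of the same length, 93.4% held GGAA or TTCC and 16.6% held ACGTG or CACGT. The counts of GGAA or TTCC in the other members were 2 for Tek, 7 for Tie1, 4 for Kdr and 5 for Abcb1a. None of the 7 held TATAAA or TTTATA, which 12.4% of all promoters did.

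**Figure D3:**
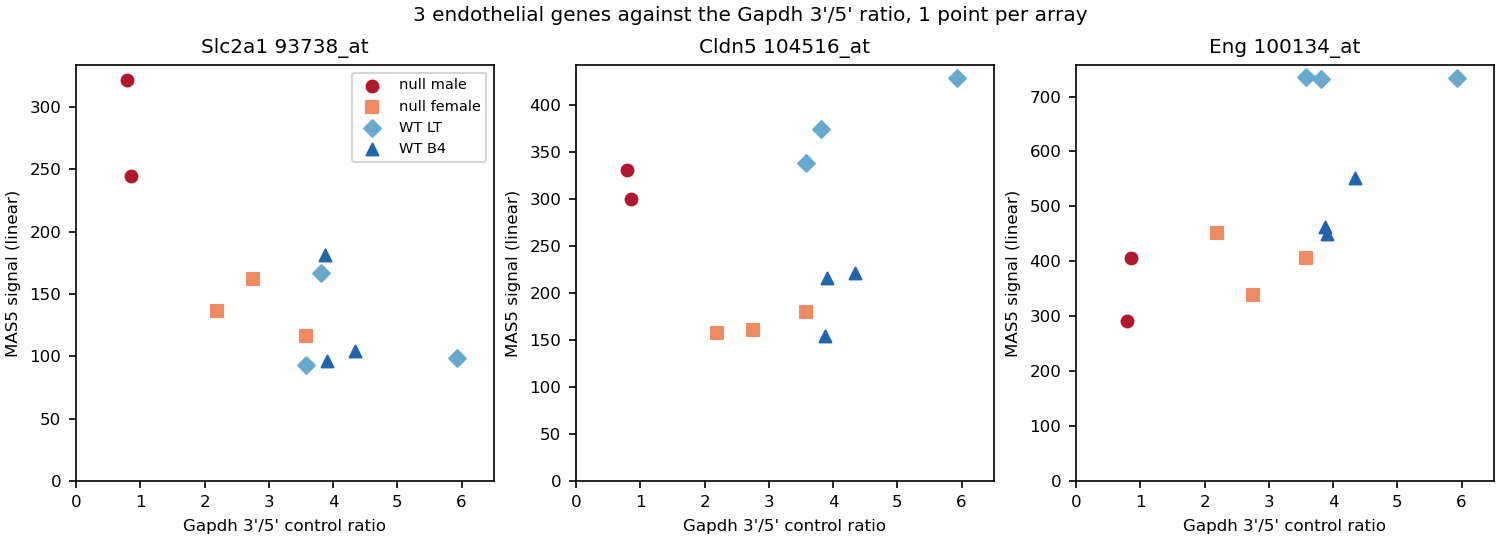
Linear MAS5 signal of Slc2a1, Cldn5 and Eng (vertical axes) against the Gapdh 3' to 5' control ratio (horizontal axes), 1 point per array, by group. The male null arrays have the lowest ratios (0.859 and 0.798) and the highest Slc2a1 signals, and the 3 LT arrays have the highest Eng signals at ratios of 3.57 to 5.92.

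Beside the Slc2a1 and Eng values stands the Gapdh ratio, which separated the male null arrays from the others. With the log2 ratio added to the fit, the Slc2a1 difference was -0.13 and the Eng difference -0.47 (adjusted p = 0.994 by limma for Eng). The ratio also ran with genotype, at 0.798 to 3.58 in null and 3.57 to 5.92 in wild-type arrays. This fit therefore cannot tell ratio and genotype apart, and the SE of Eng was 0.30 in it, against 0.18 without the ratio. The part of the ratio in these results was not tested otherwise. Another scaling of the arrays shifted all genes: the median genotype difference over all tested probe sets was 0.03 as reported, -0.04 after quantile normalization and -0.15 after median centring, with 53.9%, 45.7% and 35.3% of differences positive. The Eng difference was -0.67 with quantile normalization and -0.87 with median centring, and the Slc2a1 difference 0.68 and 0.55 in the same order of settings, so both kept their signs.

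Partners of the members were examined next, from ligands to co-receptors. Vegfa (103520_at), the main ligand of VEGF receptor 2, averaged 35.5 ± 16.3 in null and 35.6 ± 19.8 in wild-type brains (SD, n = 5 and 6), with a log2 difference of 0.17. Vegfb, which binds VEGF receptor 1, had a difference of -0.33. The genes of VEGF receptor 1 (Flt1, -0.01 and 0.04 for its 2 probe sets) and of the co-receptor neuropilin 1 (Nrp1, -0.13 and -0.28) did not pass. Acvrl1, which encodes the ALK1 receptor that works with endoglin, gave 0.31, -0.01 and 0.07 over 3 probe sets. Without the male null arrays the differences were -0.69 for Vegfa, 0.18 for Vegfb and -0.38 and -0.17 for Flt1. They were 0.22 and -0.37 for Nrp1 and 0.47, 0.03 and -0.11 for Acvrl1, in the same order of probe sets. The angiopoietin genes Angpt1 and Angpt2 and the ligand gene Tgfb1 were under the signal filter.

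Junction and transporter partners gave the same count of 0 passed. Tjp1, which encodes the scaffold ZO-1 of tight junctions, had a difference of -0.33 (99935_at, adjusted p = 0.153), and Pecam1, an endothelial adhesion gene, one of 0.11. Ocln, for occludin, and Abcb1b, for the second mouse P-glycoprotein, were under the filter. Slc2a3, for the neuronal glucose carrier GLUT3, gave 1.23 at 92292_at (adjusted p = 0.133) and 0.13 at 93804_at. At 92292_at the male null arrays read 130.9 and 168.0 against 20.8 to 37.8 on the other 9 arrays, so those probe sets of Slc2a3 disagreed in size. A place of the male null arrays above the other 9 was found in 20.7% of tested probe sets. Without the male null arrays the Slc2a3 differences were -0.21 at 92292_at and -0.26 at 93804_at. That of Tjp1 was then -0.13 and that of Pecam1 -0.66.

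**Figure D4:**
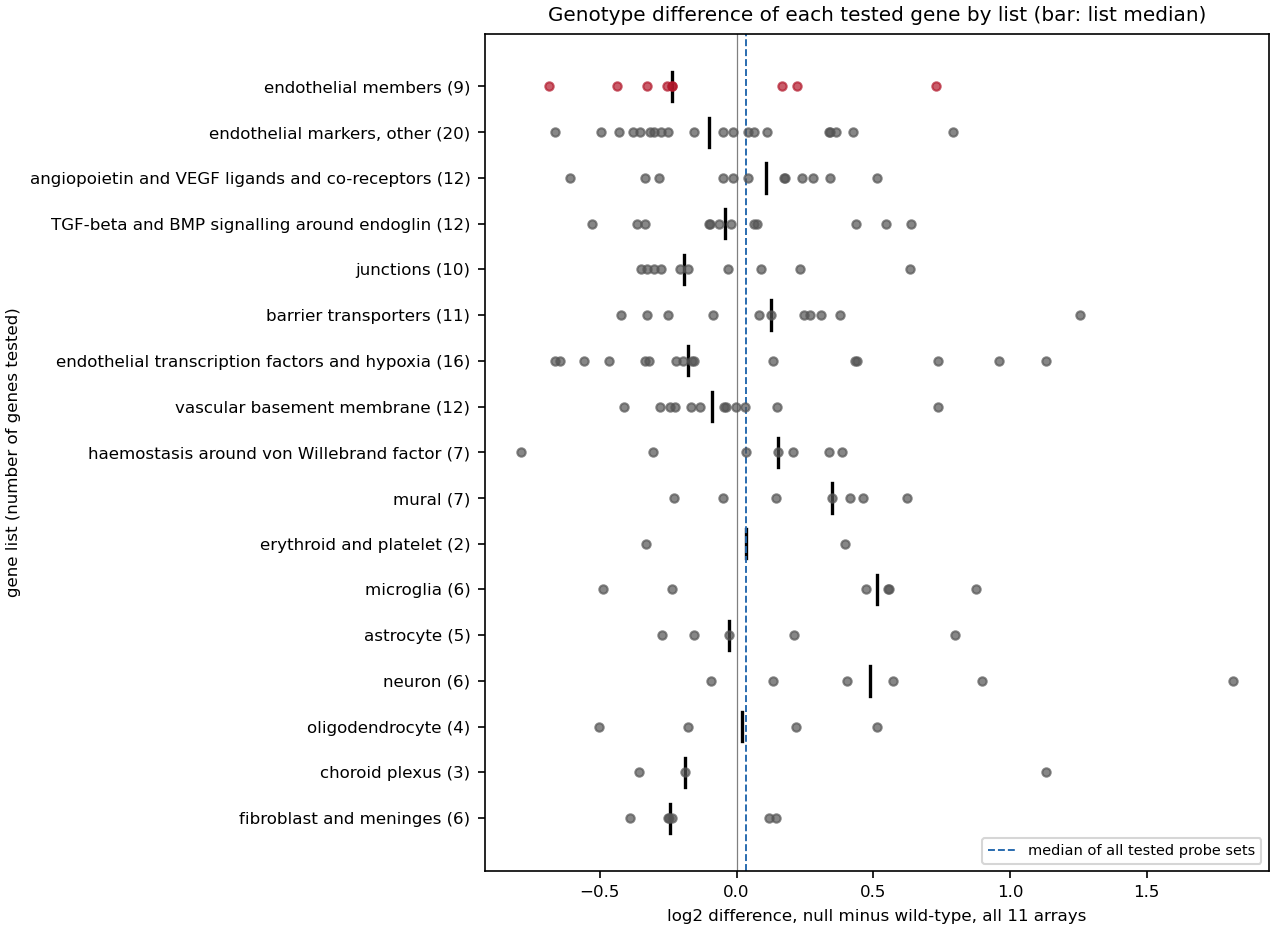
Log2 genotype difference, null minus wild-type, of each tested gene (points, horizontal axis) in 17 gene lists, with the list median as a bar and the median of all tested probe sets as a dashed line. The 9 endothelial members have a median of -0.24, and the neuron and microglia lists have medians of 0.49 and 0.51, which were -0.05 and -0.08 without the male null arrays.

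Other endothelial markers and pathway lists were read the same way, with 1 probe set per gene. Of 42 other endothelial markers, 31 were on the array and 20 were tested. Their median difference was -0.10, and none passed the adjusted threshold, with 1 higher and 3 lower at an unadjusted p under 0.05, beside 13.4% higher and 9.69% lower of all tested probe sets. The median was 0.0080 without the male null arrays. Car4, a carbonic anhydrase of capillary endothelium, had the highest difference (0.79, adjusted p = 0.0851) and Hey1, a Notch target, the lowest (-0.66, adjusted p = 0.0851). Car4 read 279.7 and 346.3 on the male null arrays against 112.6 to 198.1 on the other 9, and Hey1 read 246.3 and 284.5 against 429.7 to 630. Such a place above all others was taken by 20.7% of tested probe sets and one below by 16.5%. The differences without the male null arrays were 0.38 for Car4 and -0.22 for Hey1.

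The pathway lists likewise had 0 genes past the adjusted threshold in either direction. In the angiopoietin and VEGF list of 12 tested genes, 1 was higher and 2 lower at an unadjusted p under 0.05, beside the same 13.4% and 9.69% of all tested probe sets. Its median was 0.11, or -0.15 without the male null arrays. The highest and lowest were 2 subunits of the PI3-kinase that acts after these receptors, the regulatory Pik3r1 at 0.51 (-0.02 without the male null arrays) and the catalytic Pik3ca at -0.61 (-0.16 without them). In the TGF-beta and BMP list of 12, 3 were higher and 1 lower by the same rule, with a median of -0.04 (0.07 without the male null arrays). Tgfbr3, which encodes betaglycan, a relative of endoglin, was highest at 0.64 (0.78 without them), and Smad6, an inhibitor of BMP signalling, lowest at -0.53 (-0.46).

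The junction list of 10 had a median of -0.19, or -0.08 without the male null arrays. Jup, for plakoglobin, was highest at 0.63 (0.26 without those arrays) and F11r, for the junctional adhesion molecule JAM-A, lowest at -0.35 (-0.10). The barrier transporter list of 11 had a median of 0.13, or -0.12 without the male null arrays. The transferrin receptor gene Tfrc was highest at 1.26 (adjusted p = 0.0775), or 0.63 without those arrays, and Ager, for the receptor RAGE, lowest at -0.42 (-0.20). In the list of 16 endothelial transcription factors and hypoxia genes the median was -0.18, or 0.04 without the male null arrays. Epas1, for the hypoxia-inducible factor HIF-2α, was highest at 1.13 (adjusted p = 0.0851), or 0.74 without those arrays, and Hey1 was again lowest.

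The basement membrane list of 12 had a median of -0.09, or -0.05 without the male null arrays. Sparc, a matrix-binding glycoprotein, was highest at 0.74 (0.02 without those arrays) and Itgb1, for integrin β1, lowest at -0.41 (0.07). The haemostasis list of 7 had a median of 0.15, or 0.10 without the male null arrays. Anxa2, for annexin A2, was highest at 0.39 (0.0022 without those arrays) and Gp1bb, for a chain of the platelet receptor of von Willebrand factor, lowest at -0.79 (-0.17).

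Summed signals of some other cell type lists did not overlap between the male null arrays and the rest. A sum weights each probe set by its brightness and serves only to describe the arrays. Of single tested probe sets, 20.7% lay wholly above the rest on the male null arrays and 16.5% wholly below. The summed signal of 6 neuron genes was 10461 to 10877 on the male null arrays and 7796 to 10201 on the other 9, and that of 6 microglia genes 1606 to 1858 and 1012 to 1426. The 7 tested mural genes summed to 622.9 to 636.0 on the male null arrays and 446 to 548.2 on the others, and the 20 other endothelial markers to 2067 to 2128 and 2315 to 2639. The 3 choroid plexus genes summed to 663.8 to 922.3 on the male null arrays and 982 to 1762 on the others, and the 6 fibroblast and meninges genes to 1813 to 1852 and 2102 to 2929. The 2 erythroid and platelet genes summed to 2159.3 to 2190.7 on the male null arrays and 2354.8 to 6073.4 on the others.

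Other sums overlapped. The 9 members summed to 1231.2 to 1251 on the male null arrays and 1024.2 to 1685.3 on the others, the 5 astrocyte genes to 2961.6 to 3195.5 and 2738.6 to 3588.8, and the 4 oligodendrocyte genes to 5835.2 to 6428.6 and 5072.7 to 7753.7. Genes of 1 list also ran in opposite directions. Among microglia genes C1qa, of complement, read 427.3 to 480.8 on the male null arrays against 110.8 to 242.5 on the others, but Tyrobp, a signalling adaptor, read 100.3 to 134.7 against 171.1 to 283.2. A place above all other arrays was held by 20.7% of tested probe sets and one below by 16.5%. The genotype differences of C1qa and Tyrobp were 0.88 and -0.49 over all arrays and -0.04 and 0.10 without the male null arrays. Among neuron genes Syt1, a synaptic vesicle protein, was highest at 1.82 (0.79 without those arrays) and Snap25, of the vesicle fusion complex, lowest at -0.09 (0.15).

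The highest and lowest genotype differences of the other cell type lists were those of Tagln (0.62) and Notch3 (-0.23) for mural cells, Alas2 (0.40) and Hba-a1 (-0.33) for the erythroid and platelet list, and Glul (0.80) and Gja1 (-0.27) for astrocytes. Mag (0.51) and Mobp (-0.50) were the oligodendrocyte extremes, Folr1 (1.13) and Ttr (-0.36) those of choroid plexus, and Col1a2 (0.14) and Pdgfra (-0.39) those of fibroblasts and meninges. Without the male null arrays the same pairs gave 0.69 and -0.02, 0.13 and 0.23, 0.69 and 0.07, -0.30 and -0.37, 1.04 and 0.29, and 0.26 and -0.28. None of these genes passed the adjusted threshold. No list gene was at 0 on all arrays, and the part of these differences in the members' values was not tested.

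The probe set whose pattern over the 11 arrays was nearest to each member was looked up, as the smallest mean absolute difference of centred log2 values. Ube2s was nearest to Cldn5 (0.15, where a typical tested probe set was at 0.54) and remained nearest without the male null arrays. Set was nearest to Eng (0.11, against 0.45), with and without the male null arrays, and Atp5d to Abcb1a (0.07, against 0.30). For Slc2a1 the nearest was Ap2a2 over 11 arrays and Triap1 over 9. Each was picked as the smallest distance, so it lies below the typical one by construction, and likeness was not tested. None of the 9 members' nearest probe sets was another endothelial member. With only 9 members among the 7461 tested probe sets, this was likely whatever their patterns, and nothing is read from it.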

How the data were processed

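Whole-brain RNA was purified with TRI Reagent and RNeasy columns and labelled with biotin by an Enzo BioArray kit, per the labels' protocols. The deposited values are linear MAS5 signal intensities per probe set, per the submitters' processing notes, which give no version. Gene names came from the platform annotation: 10855 probe sets named 1 gene, 396 several and 1237 none.

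Signals under the 10th percentile of the table (3.1) were raised to it and log2 was taken. Testing was restricted to non-control probe sets with a mean log2 of at least 4.68 (the 40th percentile, equal to a linear signal of 25.7), which left 7461. Genotype, sex and their interaction were tested with limma 3.58.1 (trend, R 4.3.3), with sex or genotype as covariate and Benjamini-Hochberg adjustment over all tested probe sets. The script was tested on simulated data with independent values for each probe set and array. These data held no shift shared across an array, such as that of the male null arrays. The Gapdh ratio was compared by an exact permutation test. The number of arrays limits the precision. The labels name a separate animal number for each array.

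Named genes were all member probe sets, the listed partners, and the highest and lowest gene of each list. A list used the brightest probe set of a gene. The members and lists were chosen with earlier results of these data known. Alternatives covered scaling, filter, floor, covariates, letters and arrays left out.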

Additional observations from a re-analysis of the deposited data

Results flagged for a closer look

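The second Tie1 probe set (99936_at) moved in opposite directions by sex, in every array of each group. It read 23.7 and 33.8 in male null brains against 4.8, 2.4, 2.2 and 5.3 in male wild-type brains, and 5.0, 10.2 and 4.5 in female null brains against 12.2 and 16 in female wild-type brains. The difference of the log2 differences, females minus males, was -4.03. The male wild-type values of 2.4 and 2.2 had been raised to the floor of 3.1 before log2 was taken, so the size of this value depends on the floor. The probe set lay under the signal filter, and the difference between the sexes was not tested. No member probe set had an outlying array among 22 groups examined. The rule used looks for an array that stands alone, by its gap to the rest of its group. Arrays that deviate together, as the male null arrays did here at 23.7 and 33.8, can hide each other from it. The result therefore cannot tell whether the male null arrays were apart from the others.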

How the results depend on the processing

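Precision rests on 5 and 6 arrays, 2 of them (the male null) apart in Gapdh ratio and median signal. No paired analysis was possible because replicate numbers only follow the order of deposit. For genotype, 2 probe sets passed (1726 at an unadjusted p under 0.05 by limma). The count was 1 with quantile normalization, median centring or no sex covariate, 0 with no filter (2102 unadjusted), with age added (847), with the Gapdh ratio added (347), without the male null arrays (264), in females (390) and without the male null arrays with the letters as a block (320), 26 among B4 animals, 1983 in males alone, and 1 to 876 leaving out single arrays, the 876 without wild-type replicate 5 and 194 without wild-type replicate 3. For sex, 0 passed (926 unadjusted), 3 with no filter, 10 among B4 animals and 0 to 30 leaving out single arrays. The interaction count of 1185 was 0 with the Gapdh ratio added (659 unadjusted) and 461 to 1404 leaving out single arrays. For LT minus B4, 35 passed, against 0 with quantile normalization (793 unadjusted), 2 with no filter, 65 in wild-type only, 180 without the male null arrays and 0 to 78 leaving out single arrays.

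Among members, the genotype difference changed sign for Kdr with quantile normalization (-0.016), median centring (-0.013), age (-0.025), the Gapdh ratio (-1.07), without the male null arrays or in females (-0.50) and with letters as a block as well (-0.36). It did so for Cldn5 with age (0.18), letters as a block (0.24), B4 animals (0.28) and males (0.25), for Tie1 with the Gapdh ratio (0.38), without the male null arrays or in females (0.25) and with letters as a block as well (0.37), for Tek with the Gapdh ratio (-0.11) and for Slc2a1 with the Gapdh ratio (-0.13). Leaving out single arrays gave -0.40 to 0.023 for Cldn5 and -0.046 to 0.51 for Kdr. For sex, the sign changed for Kdr with quantile normalization (0.0024), and with the Gapdh ratio for Kdr (0.39), Cdh5 (-0.0077), Eng (-0.058) and Slc2a1 (0.014). Without the male null arrays, and in wild-type only, it changed for Cldn5 (0.099), Cdh5 (-0.088), Tie1 (-0.21), Kdr (0.38), Eng (-0.085) and Slc2a1 (0.14), and single arrays gave -0.069 to 0.23 for Eng. For the interaction it changed for Vwf with quantile normalization (0.22), median centring (0.16) and the Gapdh ratio (0.16), for Tek (0.60) and Kdr (1.70) with the Gapdh ratio, and over single arrays for Eng (-0.065 to 0.64) and Vwf (-0.25 to 0.095). For LT minus B4 it changed for Abcb1a with quantile normalization (-0.0046) and median centring (-0.0044), and over single arrays for Tek (-0.27 to 0.28), Tie1 (-0.21 to 0.48), Kdr (-0.28 to 1.03), Abcb1a (-0.065 to 0.094) and Slc2a1 (-0.63 to 0.16). 

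Calls were gained for Eng in males alone (-0.82) and without wild-type replicate 3 (-0.85), for Slc2a1 in males alone (1.29) and without wild-type replicate 5 (1.01), for the Tie1 interaction with quantile normalization (1.46) and median centring (1.53), for the Cldn5 interaction with letters as a block (-1.03), for LT minus B4 without the male null arrays for Cldn5 (0.96) and Eng (0.60), and for the Slc2a1 interaction without wild-type replicate 2 (-1.40) or 3 (-1.58). Counts of all probe sets that passed the interaction with quantile normalization, median centring or letters as a block are not given. The Tie1 and Cldn5 interaction calls therefore cannot be set beside them. As reported, 15.9% of all tested probe sets passed the interaction. The male call of Tie1 was lost in a fit of the male arrays alone (-1.06, adjusted p = 0.0561). List medians moved to -0.26 with quantile normalization and 0.0080 without the male null arrays for other endothelial markers. Without the male null arrays they were -0.15 for angiopoietin and VEGF, -0.084 for junctions, -0.12 for barrier transporters, 0.043 for transcription factors, 0.22 for mural, -0.078 for microglia, -0.053 for neuron, -0.33 for oligodendrocyte, 0.34 for choroid plexus and 0.075 for fibroblast genes. The cause of these changes was not tested.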
